A study of Rattus norvegicus with 30 samples.

Results

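Glutathione supply and breakdown is described here through 5 genes: Slc7a11, Gclc, Gclm, Gsr and Chac1. They were chosen with earlier results of these data known, and were found by symbol in the platform annotation. All 5 were among the 14217 genes measured, on 6 probe sets of which 2 belong to Gclc. Each gene is given by the probe set, among those annotated to 1 symbol, with the highest mean log2 signal over the 30 arrays. Primary hepatocytes of male Sprague Dawley rats, bought frozen, were treated with beta-naphthoflavone (BNF), a planar ligand of the aryl hydrocarbon receptor. The 6 groups were vehicle (1% DMSO), 1 µM BNF and 100 µM BNF, each harvested 24 h and 48 h after dosing, with 5 separate culture wells per group and 1 array per well. The array titles name DMSO for vehicle only and do not give the DMSO content of the BNF wells. The labels do not tie wells to animals, so the p-values below measure the spread between wells. As cultures of purchased frozen cells, all groups lack the rest of the liver, and the vehicle is itself a culture ageing from 24 h to 48 h.

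Glutathione is a tripeptide of glutamate, cysteine and glycine that hepatocytes hold at high concentration and use to conjugate electrophiles and to reduce peroxides. Cysteine enters many cells as cystine through system xc-, whose transport subunit is Slc7a11, and the rate-limiting ligase joins it to glutamate with a catalytic subunit (Gclc) and a modifier subunit (Gclm). Glutathione reductase (Gsr) returns oxidised glutathione to its reduced form with NADPH, and Chac1, a cytosolic gamma-glutamylcyclotransferase, cleaves glutathione. Slc7a11, Gclc, Gclm and Gsr are known targets of the transcription factor NRF2, which binds antioxidant response elements, and Chac1 and Slc7a11 are known targets of ATF4, the effector of the amino acid response.

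The promoters of 4 of the 5 genes were matched in RefSeq on GRCr8 and are shown with matches to motifs of these regulators and of the aryl hydrocarbon receptor, which BNF binds. Each line gives the 250 bases before the annotated start, 5′ to 3′ on the gene's strand, with motif matches in capitals. The intervals are chr2:136668265-136668514 on the minus strand for Slc7a11, chr8:87510226-87510475 on the plus strand for Gclc, chr2:213031885-213032134 on the plus strand for Gclm and chr3:126795881-126796130 on the plus strand for Chac1.
Slc7a11: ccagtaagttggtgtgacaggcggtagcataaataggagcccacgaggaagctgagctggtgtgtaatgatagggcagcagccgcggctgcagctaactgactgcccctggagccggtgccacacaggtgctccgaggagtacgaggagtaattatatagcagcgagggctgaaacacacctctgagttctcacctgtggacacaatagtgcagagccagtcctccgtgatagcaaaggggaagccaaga
Gclc: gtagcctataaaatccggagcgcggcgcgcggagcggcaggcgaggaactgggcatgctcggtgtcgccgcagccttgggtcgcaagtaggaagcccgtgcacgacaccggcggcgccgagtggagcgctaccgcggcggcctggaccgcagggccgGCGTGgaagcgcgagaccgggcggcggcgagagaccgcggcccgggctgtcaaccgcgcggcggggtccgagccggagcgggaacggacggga
Gclm: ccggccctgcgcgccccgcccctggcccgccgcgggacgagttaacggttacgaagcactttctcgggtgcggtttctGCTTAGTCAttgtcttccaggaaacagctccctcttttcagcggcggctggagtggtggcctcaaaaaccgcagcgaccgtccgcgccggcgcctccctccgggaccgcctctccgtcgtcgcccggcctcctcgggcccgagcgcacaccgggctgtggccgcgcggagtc
Chac1: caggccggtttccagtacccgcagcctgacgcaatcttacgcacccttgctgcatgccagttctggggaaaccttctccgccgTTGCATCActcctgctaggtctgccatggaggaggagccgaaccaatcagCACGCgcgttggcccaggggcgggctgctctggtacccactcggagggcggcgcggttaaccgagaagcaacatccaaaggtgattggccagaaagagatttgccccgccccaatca

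The motifs were searched on both strands of these windows. The antioxidant response element core, TGACNNNGC, was found in Gclm, on the opposite strand as GCTTAGTCA, 172 to 164 bases before the start. The same core is present in 10.1% of all 33469 promoters of this length. The xenobiotic response element core of the aryl hydrocarbon receptor, GCGTG, was found in Gclc at 93 to 89 bases before the start, and in Chac1 on the opposite strand as CACGC at 117 to 113. That short core is present in 25.9% of all promoters. The CEBP-ATF element, TGATGNAA, was found in Chac1 on the opposite strand as TTGCATCA at 167 to 160 bases before the start, against a share of 3.4% of all promoters. No match to the 3 motifs was found in the Slc7a11 window. A match describes letters only, and its absence says only that these letters are not in this window. No match overlapped another.

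All values are MAS5 signals on a linear scale, and the mean over probe sets, with 2% trimmed at each end, was nearly the same on every array (1500.5 to 1500.6). A change shared by most genes therefore cannot be seen. The 30 arrays had median signals of 337.8 to 429.1, and the median gene varied by an SD of 0.192 to 0.206 on the log2 scale within groups. No pair of arrays was identical. The hepatocyte identity of the cultures was checked on 9 of 10 listed markers. All 9 lay above the median gene, at a median percentile of 99.5 of gene means. Markers of Kupffer, stellate and endothelial cells, cholangiocytes and lymphocytes lay at median percentiles of 43.9, 28.7, 27.2, 6.29 and 23. Calls below are at an adjusted p under 0.05 from limma, with Benjamini-Hochberg adjustment over all 14217 genes, and log2 fold changes (log2FC) are given with their 95% confidence intervals.

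At 100 µM BNF, all 5 genes were higher than in vehicle at both times. Slc7a11 rose most, 2.01-fold at 24 h and 2.28-fold at 48 h. The catalytic subunit Gclc rose 1.38-fold (24 h) and 1.97-fold (48 h), while the modifier subunit Gclm rose 1.47-fold and 1.50-fold. Gsr rose 1.38-fold and 1.40-fold, and the glutathione-cleaving Chac1 rose 1.29-fold and 1.24-fold. Across all genes, 10.7% were called higher and 10.4% lower at 24 h (21.1% in all), and 8.79% and 8.62% at 48 h (17.4% in all). The median log2FC of the 5 genes was 0.47 at 24 h and 0.59 at 48 h, beside 0.04 and 0.02 over all genes. As the 5 were chosen with earlier results known, their standing beside all genes is a description and not a test. At 1 µM, by contrast, limma called none of the 5 genes at either time.

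**Figure D1:**
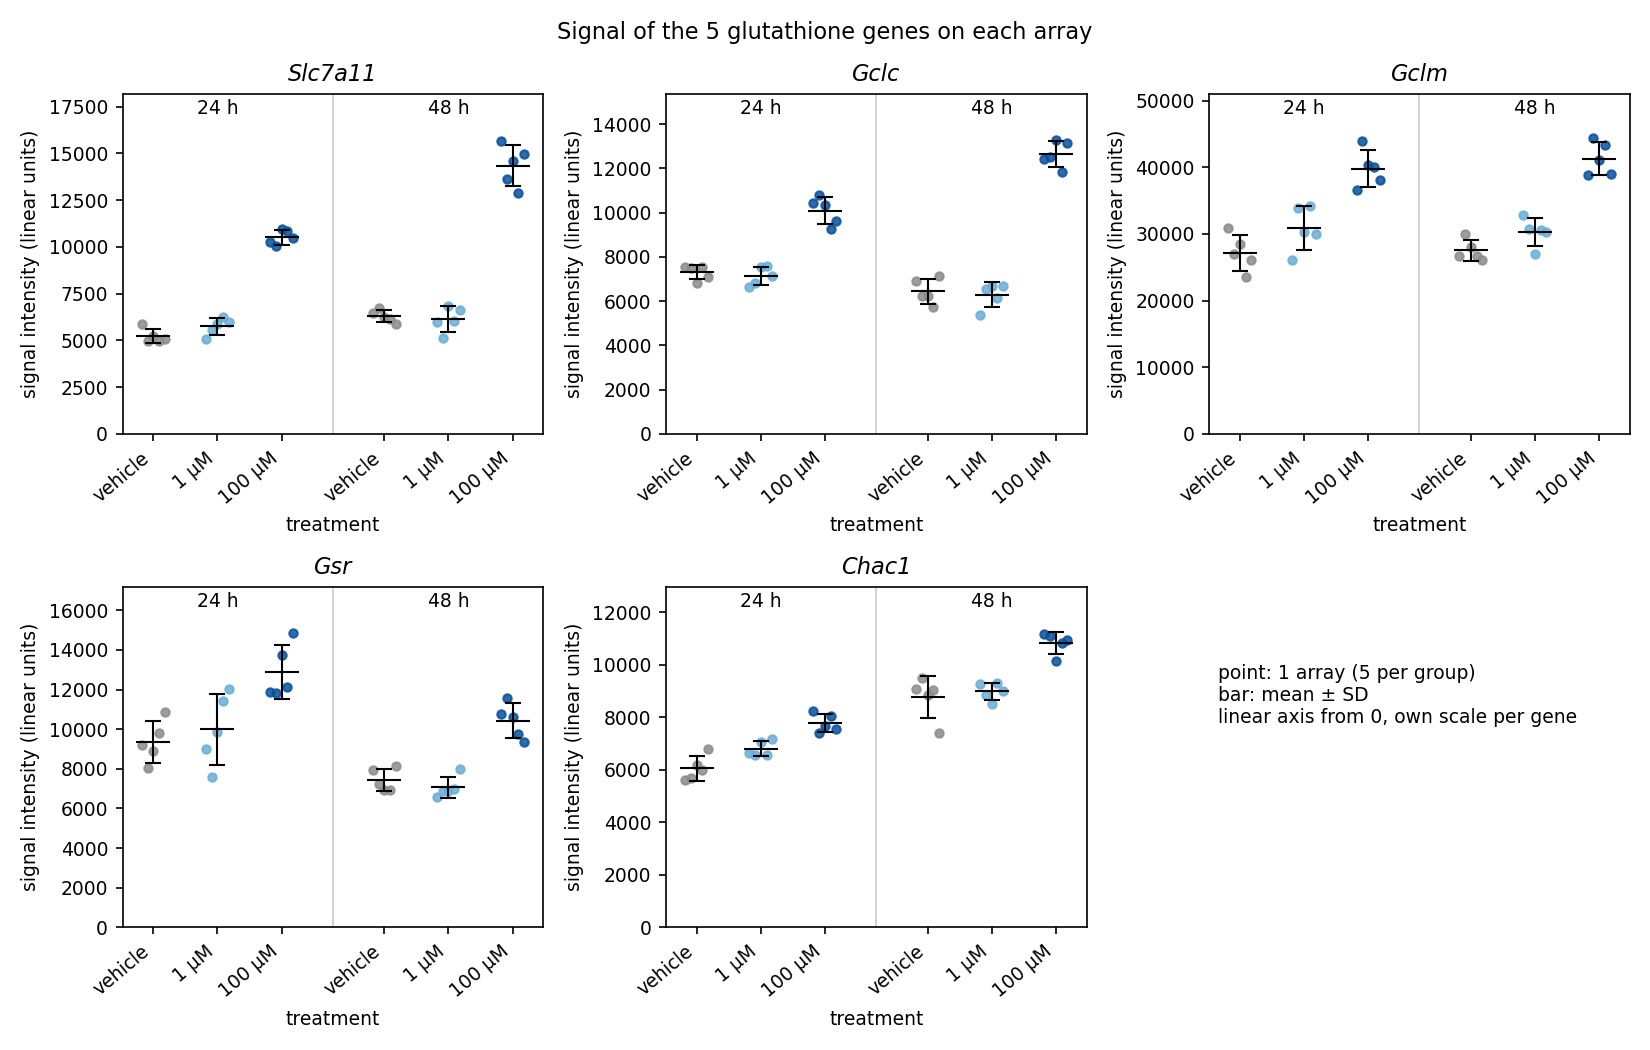
Signal intensity of each gene on every array (linear axis from 0, with its own scale per gene), by treatment and time; points are single arrays and bars the mean ± SD of 5 arrays. In all 5 panels the arrays at 100 µM lie above every vehicle array of the same time.

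Slc7a11, the cystine importer, gave 5888, 4973, 5243, 4964 and 5097 in vehicle at 24 h, 5091, 5563, 5875, 6246 and 6012 at 1 µM, and 10238, 10040, 10956, 10830 and 10483 at 100 µM. At 48 h it gave 6445, 6749, 6248, 6149 and 5898 in vehicle, 5988, 5105, 6861, 6051 and 6649 at 1 µM, and 15643, 13624, 14596, 12897 and 14995 at 100 µM. The 100 µM arrays stood far above both other groups at each time, and the vehicle and 1 µM arrays overlapped. Against vehicle, the log2FC at 100 µM was 1.01 (0.87 to 1.14, adjusted p = 1.08e-12, limma) at 24 h and 1.19 (1.05 to 1.32, adjusted p = 1.57e-14) at 48 h. Ranked by p over all genes, Slc7a11 was number 21 at 24 h and number 18 at 48 h. In order of mean signal, vehicle 24 h, 1 µM 24 h, 1 µM 48 h and vehicle 48 h each overlapped the next. The 100 µM group at 24 h (10510 ± 386, SD, n = 5) and then at 48 h (14351 ± 1094) stood apart from every group below.

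Gclc, the catalytic subunit of the ligase, gave 7554, 7511, 6837, 7527 and 7089 in vehicle at 24 h, 6619, 6835, 7529, 7588 and 7123 at 1 µM, and 10416, 10788, 10358, 9279 and 9612 at 100 µM. At 48 h the signals were 6906, 6212, 6235, 5725 and 7132 in vehicle, 5374, 6555, 6701, 6146 and 6677 at 1 µM, and 12431, 12510, 13281, 11837 and 13132 at 100 µM. Vehicle and 1 µM were intermingled at both times, and the 100 µM arrays were separate from both and higher at 48 h than at 24 h without overlap. The log2FC at 100 µM was 0.47 (0.34 to 0.59, adjusted p = 7.85e-07, limma) at 24 h and 0.98 (0.85 to 1.10, adjusted p = 1.88e-13) at 48 h. Gclc thus moved from number 306 by p at 24 h to number 26 at 48 h. The 4 groups without 100 µM overlapped neighbour by neighbour, from 1 µM 48 h (6291 ± 558, SD, n = 5) to vehicle 24 h (7304 ± 324).

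Gclm, the modifier subunit, was the brightest of the 5 probe sets, at the 98.47th percentile of gene means, although signals of different probe sets are not levels of different genes on 1 scale. It gave 30838, 27001, 28431, 23526 and 26071 in vehicle at 24 h, 26070, 33885, 30267, 34124 and 30039 at 1 µM, and 36621, 43917, 40308, 39982 and 38127 at 100 µM. At 48 h it gave 26762, 30015, 28042, 26764 and 26030 in vehicle, 32909, 30702, 27004, 30584 and 30293 at 1 µM, and 38781, 44359, 41164, 43301 and 38953 at 100 µM. The 100 µM arrays were again above all others of their time, but here those of 24 h and 48 h overlapped. The log2FC at 100 µM was 0.55 (0.41 to 0.70, adjusted p = 4.24e-07, limma) at 24 h and 0.59 (0.44 to 0.73, adjusted p = 1.52e-07) at 48 h.

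Gsr, the reductase that recycles glutathione, gave 9212, 8038, 8891, 9790 and 10874 in vehicle at 24 h, 8980, 7612, 9880, 11440 and 12027 at 1 µM, and 11860, 11811, 13760, 12141 and 14849 at 100 µM. At 48 h it gave 7934, 7251, 6910, 6948 and 8138 in vehicle, 6584, 6884, 6864, 7004 and 7990 at 1 µM, and 10773, 11578, 10636, 9749 and 9368 at 100 µM. At 24 h the highest 1 µM array reached into the 100 µM range, while at 48 h the 100 µM arrays were separate. The log2FC at 100 µM was 0.46 (0.27 to 0.66, adjusted p = 0.000448, limma) at 24 h and 0.49 (0.29 to 0.68, adjusted p = 0.000302) at 48 h. Gsr at 100 µM 48 h (10421 ± 876, SD, n = 5) overlapped the next lower group, 1 µM 24 h (9988 ± 1799), so 100 µM cells at 48 h were not set apart from 1 µM cells at 24 h.

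Chac1, which cleaves glutathione, gave 5611, 5689, 6199, 5989 and 6802 in vehicle at 24 h, 6654, 6568, 7055, 6562 and 7184 at 1 µM, and 8235, 7411, 7658, 8039 and 7569 at 100 µM. At 48 h the signals were 9082, 9481, 8839, 9031 and 7407 in vehicle, 9271, 8859, 8503, 9325 and 8987 at 1 µM, and 11160, 11078, 10127, 10824 and 10947 at 100 µM. The 100 µM arrays were above both other groups at each time. In vehicle the 48 h arrays were above the 24 h arrays without overlap, as were those of 5.61% of all genes. The same held for Chac1 at 1 µM and at 100 µM, where the share over all genes was not counted. The log2FC at 100 µM was 0.36 (0.25 to 0.48, adjusted p = 7.37e-06, limma) at 24 h and 0.31 (0.20 to 0.42, adjusted p = 8.9e-05) at 48 h. Vehicle cells at 48 h (8768 ± 796, SD, n = 5) had a higher mean than 100 µM cells at 24 h (7782 ± 343), with overlapping arrays.

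No array of vehicle overlapped the 100 µM arrays of the same time for any of the 5 genes. Over all genes, 6.89% had higher 100 µM arrays without overlap at 24 h and 6.66% at 48 h. For the separation of the 100 µM arrays of 24 h and 48 h given above for Slc7a11, Gclc and Chac1, the share over all genes was not counted.

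The summed signal of the hepatocyte markers also moved with dose. It was 425697 to 484214 in vehicle and 365441 to 475674 at 100 µM at 24 h, and 371175 to 444773 against 282971 to 350296 at 48 h. Of the 9 markers, 4 were called lower at 100 µM at 24 h and 6 at 48 h, and 0 were called higher. Over all genes, 10.4% were called lower at 24 h and 8.62% at 48 h, and 10.7% and 8.79% higher. Kupffer cell markers summed to 10808 to 10989 in vehicle and 9944 to 11549 at 100 µM at 24 h, and to 8048 to 9593 against 6073 to 7624 at 48 h, with 0 and 1 of 9 called lower. The 1 of 9 at 48 h is near the share over all genes. Stellate cell markers summed to 6122 to 9490 against 4757 to 5739 at 24 h, and 2 of 10 were called lower. At 48 h the stellate sums overlapped (2930 to 5083 in vehicle and 3131 to 4214 at 100 µM). The sums of cholangiocyte markers overlapped at 24 h (10225 to 11573 in vehicle and 10289 to 11179 at 100 µM). At 48 h the cholangiocyte markers summed to 11426 to 13108 against 9074 to 9786, and 1 of 5 was called lower. Of these 5, Epcam lay at the 91.8th percentile of gene means and the other 4 at 18.9 or lower, so the sum is mostly Epcam. Their part in the changes of the 5 genes was not tested. In such bulk samples, fewer cells of a type and less RNA per cell cannot be told apart.

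At 1 µM BNF none of the 5 genes was called. By limma at 24 h, 0 of 5 passed after adjustment, beside 4.30% of all genes called, 1.91% higher and 2.40% lower. Without adjustment, 3 of 5 had a p under 0.05, a looser threshold at which the share of all genes was not counted. Of these 3, Slc7a11 had the largest p (0.0484, limma) and ranked number 2452 by p over all 14217 genes. The log2FC was 0.14 for Slc7a11 (0.00 to 0.27, adjusted p = 0.281) and 0.18 for Gclm (0.04 to 0.33, adjusted p = 0.143). It was 0.17 for Chac1 (0.06 to 0.28, adjusted p = 0.0763). For Chac1, all 5 arrays at 1 µM were above the vehicle mean, and 2 were above every vehicle array (exact two-sided permutation p = 0.0317). Chac1 passed the threshold with quantile normalization (adjusted p = 0.0466) and with genes below the median mean signal left out (0.0448). Gclc (-0.03, -0.16 to 0.09) and Gsr (0.08, -0.11 to 0.28) had intervals on both sides of 0. At 48 h, by limma, 0 of 5 passed after adjustment, beside 0.809% of all genes called. Before adjustment, 0 of 5 had a p under 0.05. For Gclm, 4 of 5 arrays at 1 µM were above every vehicle array at 48 h (exact two-sided permutation p = 0.0476). These exact p-values are not adjusted for the 20 comparisons of the 5 genes with vehicle. With Benjamini-Hochberg adjustment over those 20, the permutation test gave 0.0577 for Chac1 at 24 h and 0.0794 for Gclm at 48 h. The limma intervals at 48 h were -0.18 to 0.09 for Slc7a11, -0.16 to 0.09 for Gclc, -0.01 to 0.28 for Gclm, -0.27 to 0.12 for Gsr and -0.07 to 0.15 for Chac1. These intervals bound the changes at 1 µM and do not show that the genes were unaffected.

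**Figure D2:**
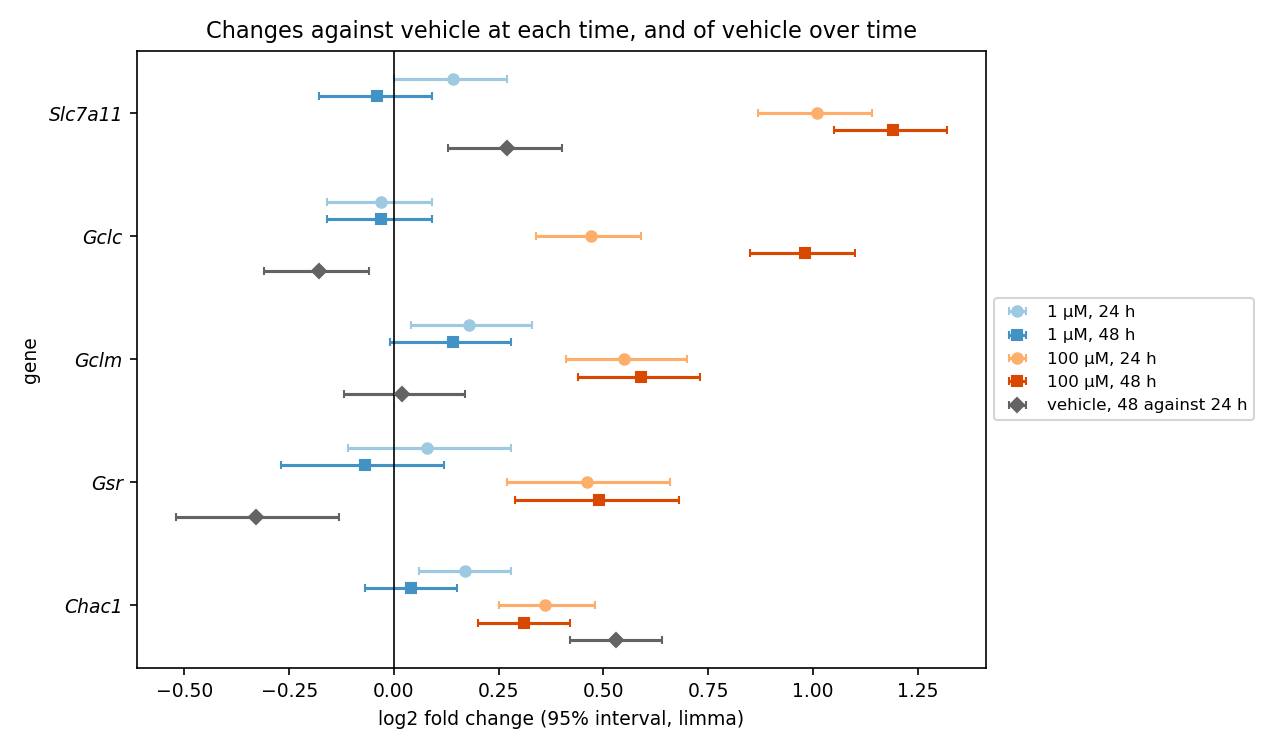
Log2 fold change of each gene with its 95% interval from limma, for 1 µM and 100 µM BNF against vehicle at 24 h and 48 h and for vehicle at 48 h against 24 h. The 100 µM points are above 0 for all 5 genes, from 0.31 for Chac1 to 1.19 for Slc7a11 at 48 h, and the vehicle points lie on both sides of 0.

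Comparing the doses directly, all 5 genes were higher at 100 µM than at 1 µM at both times. At 24 h the log2FC was 0.87 for Slc7a11 (adjusted p = 1.13e-10, limma), 0.50 for Gclc (1.17e-06), 0.37 for Gclm (0.000568), 0.38 for Gsr (0.00871) and 0.19 for Chac1 (0.0236). Beside this, 3.14% of all genes were called higher and 7.72% in either direction. At 48 h it was 1.23, 1.01, 0.45, 0.56 and 0.27 in the same order, with adjusted p of 0.00076 or lower, beside 6.57% of all genes called higher. Of all genes called at 48 h, 934 were higher and 1050 lower (47.1% higher), and with arrays centred on their median 1734 and 685 (71.7%). The smallest difference, that of Chac1 at 24 h, was lost when any 1 of 5 arrays was left out, with an adjusted p of up to 0.0714. Those were replicates 1, 2 and 4 of 1 µM and replicates 1 and 4 of 100 µM at 24 h. The call of Gsr at 24 h was lost when the 2 groups alone were fitted (adjusted p = 0.0583). The arrays of the doses overlapped for Gsr at 24 h (exact permutation p = 0.0238) and in none of the other 9 comparisons. Over all genes, the 100 µM arrays were higher without overlap for 3.31% at 24 h and 5.07% at 48 h.

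The vehicle cultures themselves changed between 24 h and 48 h, and the genes did not move together. Chac1 rose 1.45-fold (log2FC 0.53, 0.42 to 0.64, adjusted p = 1.52e-08, limma) and Slc7a11 rose 1.20-fold (0.27, 0.13 to 0.40, adjusted p = 0.0041). Gsr fell 1.26-fold (-0.33, -0.52 to -0.13, adjusted p = 0.0144) and Gclc fell 1.14-fold (-0.18, -0.31 to -0.06, adjusted p = 0.0336). Gclm had a log2FC of 0.02 (-0.12 to 0.17, adjusted p = 0.894). Thus 2 of 5 were called higher and 2 lower, beside 8.64% and 8.60% of all genes. For Chac1 and Slc7a11 the arrays of the times did not overlap, whereas they did for the other 3 genes, and 5.61% of all genes had higher arrays at 48 h without overlap. In vehicle the summed Kupffer cell markers went from 10808 to 10989 at 24 h to 8048 to 9593 at 48 h, and the stellate cell markers from 6122 to 9490 to 2930 to 5083, both without overlap. The hepatocyte sums given above overlapped between the times, and the part of these markers was not tested. The fall of Gclc did not pass with arrays centred on their median (adjusted p = 0.109), with those groups fitted alone (0.063), without a trend in the variance (0.0553) or on its other probe set (log2FC -0.16, adjusted p = 0.346), and it was lost without replicate 1, 2 or 4 of vehicle 24 h or replicate 2, 3 or 4 of vehicle 48 h (adjusted p up to 0.129). The fall of Gsr was lost without replicate 5 of vehicle 24 h (adjusted p = 0.0574).

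Whether the BNF effect differed between the times was tested as a difference of effects. For Gclc the effect of 100 µM was larger at 48 h by 0.51 on the log2 scale (SE 0.09, 0.33 to 0.69, adjusted p = 0.0011, limma). It ranked number 23 of all genes, of which 0.788% were called in either direction. The difference was 0.18 for Slc7a11 (-0.01 to 0.37, adjusted p = 0.494), 0.03 for Gclm (-0.17 to 0.23), 0.02 for Gsr (-0.25 to 0.30) and -0.06 for Chac1 (-0.21 to 0.10), none of them called. For 1 µM the same test called 0 of 5 by limma, beside 0.0914% of all genes. Before adjustment, 0 of 5 had a p under 0.05.

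The other Gclc probe set gave the same direction at 100 µM and a smaller difference between times. Its signals at 24 h were 2795, 2786, 2585, 2934 and 3187 in vehicle, 2485, 2698, 3085, 3346 and 3021 at 1 µM, and 4058, 3903, 4439, 3761 and 4392 at 100 µM. At 48 h they were 2398, 2319, 2388, 2336 and 3448 in vehicle, 2269, 2634, 3059, 2698 and 2561 at 1 µM, and 4139, 5593, 4408, 3979 and 4357 at 100 µM. The 100 µM arrays stood above all vehicle arrays at each time, but 1 array in each of the 48 h vehicle and 100 µM groups stood high above its group, and the 100 µM arrays of 24 h and 48 h overlapped. The log2FC at 100 µM was 0.53 (0.32 to 0.73, adjusted p = 0.000251, limma) at 24 h and 0.81 (0.60 to 1.02, adjusted p = 4.48e-07) at 48 h. The difference between the times was 0.28 (-0.01 to 0.58, adjusted p = 0.475), so the call of a larger effect at 48 h rests on 1 of the 2 probe sets. Leaving out the high vehicle array (replicate 5) gave 0.39 (adjusted p = 0.149), and leaving out the high 100 µM array (replicate 2) gave 0.20 (adjusted p = 0.634). These settings were chosen after seeing the data.

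**Figure D3:**
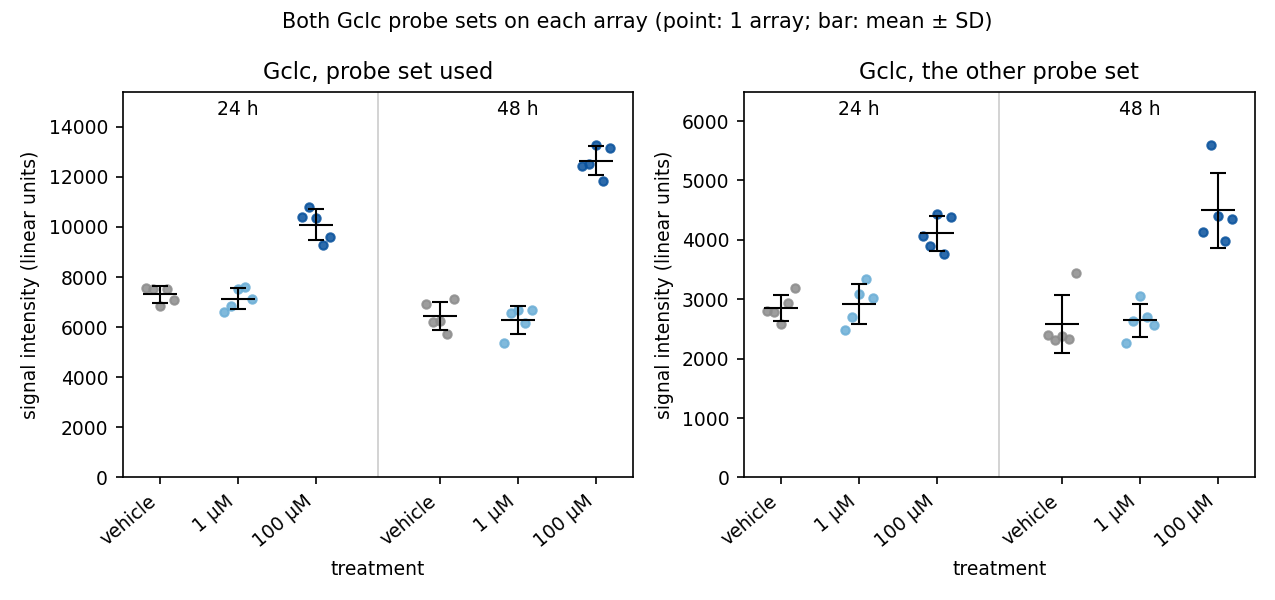
Signal intensity on every array of both Gclc probe sets, by treatment and time (linear axes from 0, own scale each; points are arrays, bars the mean ± SD of 5). The left probe set shows separate 100 µM groups at 24 h and 48 h, and the right shows overlapping ones with single high arrays at 3448 and 5593.

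Genes around the 5 were taken from lists of the pathway, which were also chosen with earlier results of these data known. Their counts beside the shares of all genes are therefore descriptions. For glutathione synthesis and recycling, 11 of 12 listed genes were measured, including 4 of the genes above. At 100 µM 8 of these 11 were called higher and 1 lower at 24 h (median log2FC 0.40), beside 10.7% and 10.4% of all genes, and 9 and 1 at 48 h (0.49), beside 8.79% and 8.62%. The 8 and the 9 include the 4 genes above, Slc7a11, Gclc, Gclm and Gsr, which are thus counted here again. Thioredoxin reductase Txnrd1 rose 1.52-fold at 24 h (adjusted p = 4.63e-07, limma) and 1.62-fold at 48 h (3e-08), and the NADPH-forming dehydrogenase Pgd rose 1.32-fold and 1.60-fold. The mitochondrial transhydrogenase Nnt fell 1.48-fold and 1.30-fold. Glutathione synthetase, Gss, which adds glycine in the second step, rose 1.10-fold at 48 h (adjusted p = 0.0378), a call that was lost with quantile normalization (0.076), without a trend in the variance (0.0622) and without replicate 1, 3 or 5 of vehicle or 2, 3 or 5 of 100 µM (up to 0.121), and it was not called at 24 h.

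In the list of cystine and cysteine supply, which also holds genes that divert cysteine, more genes were lower than higher. Not all of its genes act on cysteine: Shmt1 is among those lower at both times, and Slc6a9 among those higher at 48 h. Of 14 measured, 2 were called higher and 7 lower at 24 h (median log2FC -0.31), and 4 and 7 at 48 h (-0.10). The shares over all genes were 10.7% and 10.4% at 24 h, and 8.79% and 8.62% at 48 h. Bhmt, which remethylates homocysteine, averaged 39902 ± 5708 (SD, n = 5) in vehicle and 16021 ± 1235 at 100 µM at 24 h, and 20586 ± 6527 and 4962 ± 991 at 48 h. It fell 2.48-fold at 24 h (adjusted p = 2.15e-06, limma) and 4.04-fold at 48 h (5.98e-10). Cdo1, the dioxygenase that commits cysteine to taurine and sulfate, fell 2.20-fold and 2.11-fold, and Mat1a, the hepatic S-adenosylmethionine synthetase, fell 1.69-fold and 1.26-fold. Cbs, the first enzyme of transsulfuration, fell 1.82-fold at 24 h (adjusted p = 7e-05) and 1.42-fold at 48 h (0.0181), the latter lost without replicate 4 or 5 of vehicle or 1 of 100 µM (up to 0.0765). Cth, which releases cysteine in the next step, fell 1.16-fold at 24 h (adjusted p = 0.000312) and had a log2FC of 0.00 (-0.09 to 0.09) at 48 h.

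Among transporters in that list, the neutral amino acid carrier Slc1a4 rose 1.63-fold (24 h) and 1.85-fold (48 h) (adjusted p = 1.4e-07 and 1.37e-09, limma). Slc3a2, the heavy chain that pairs with Slc7a11 in system xc-, rose 1.15-fold at 24 h (adjusted p = 0.0112) and 1.14-fold at 48 h (0.0185). The 48 h call was lost without replicate 3 of vehicle or 3 or 5 of 100 µM (up to 0.0778) and with those groups fitted alone (0.0768). The 2 subunits of the cystine carrier thus differed in the size of their rise by these probe sets, a difference that was not tested.

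**Figure D4:**
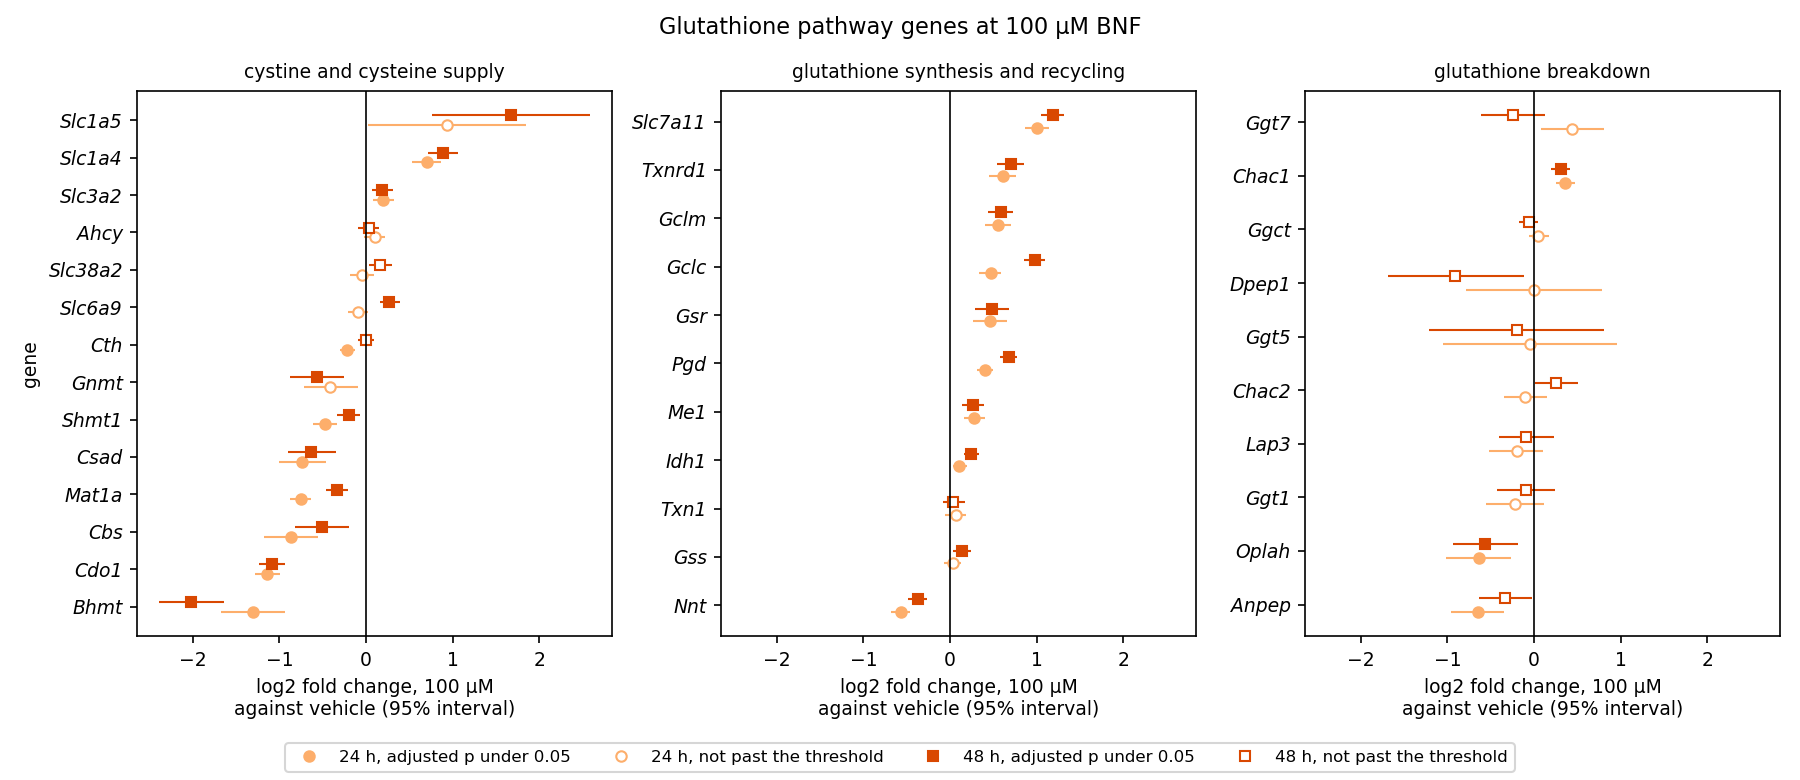
Log2 fold change at 100 µM BNF against vehicle, with 95% intervals from limma, for the measured genes of cysteine supply, glutathione synthesis and recycling, and glutathione breakdown at 24 h and 48 h; filled markers have an adjusted p under 0.05. Most filled points are above 0 in the synthesis panel (8 of 11 genes at 24 h, including Slc7a11, Gclc, Gclm and Gsr). Most are below 0 in the cystine and cysteine supply panel (7 of 14 genes at 24 h), which also holds genes that divert cysteine, such as Cdo1.

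Chac1 was the only one of 10 measured genes of glutathione breakdown called higher at 100 µM, at both times, a share near that over all genes (10.7% at 24 h and 8.79% at 48 h). Its paralog Chac2 had a log2FC of 0.26 (0.01 to 0.51, adjusted p = 0.156, limma) at 48 h. The gamma-glutamyltransferase Ggt1, which starts breakdown outside the cell, had -0.09 (-0.43 to 0.24, adjusted p = 0.794). Oplah, the 5-oxoprolinase, fell 1.55-fold at 24 h (adjusted p = 0.0118) and 1.48-fold at 48 h (0.0313), calls that were lost without replicate 2 of vehicle at 24 h (0.0508) and without replicate 3 or 4 of vehicle or 1 or 3 of 100 µM at 48 h (up to 0.118). The 48 h call was also lost with those groups fitted alone (0.0888). The aminopeptidase Anpep fell 1.56-fold at 24 h (0.00192). The median log2FC of the list was -0.07 at 24 h and -0.15 at 48 h.

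Of 15 listed genes of peroxidases, glutaredoxins and related enzymes, 4 were called higher and 5 lower at 24 h (10.7% and 10.4% of all genes), and 3 and 4 at 48 h (8.79% and 8.62%). Glutaredoxin Glrx rose 1.85-fold at 24 h (adjusted p = 3.7e-14, limma) and 1.72-fold at 48 h (3.13e-13), and the epithelial peroxidase Gpx2 rose 1.49-fold and 1.57-fold. The methionine sulfoxide reductase Msrb1 fell 1.43-fold and 1.25-fold, and the glyoxalase Hagh fell 1.25-fold and 1.13-fold. Glrx2 rose 1.12-fold at 24 h and fell 1.24-fold at 48 h, but its other probe set gave a log2FC of 0.16 at 48 h (adjusted p = 0.506), the opposite direction. Of 9 transport genes, 2 were called higher and 3 lower at 24 h, and 2 and 1 at 48 h, beside the same shares of all genes, to which 1 of 9 lower at 48 h is near. The exporter Abcc4 rose 1.71-fold (24 h) and 1.91-fold (48 h), Abcc5 rose 1.54-fold at 24 h (not called on its other probe set, adjusted p = 0.45) and Abcc3 rose 1.54-fold at 48 h. The mitochondrial carrier Slc25a10 fell 1.89-fold and 2.04-fold and was not called on its other probe set (adjusted p = 0.126 and 0.105), and Slc25a11 fell 1.11-fold at 24 h.

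The regulators were read from the other lists. Of 11 NRF2-related genes, 6 were called higher and 0 lower at 24 h (10.7% and 10.4% of all genes), and 5 and 0 at 48 h (8.79% and 8.62%). Nfe2l2, which encodes NRF2, rose 1.36-fold (24 h) and 1.37-fold (48 h) (adjusted p = 1.88e-08 and 1.06e-08, limma). Nqo1, a quinone reductase with both kinds of response element, rose 1.84-fold and 1.71-fold. The NRF2 partner genes Maff and Mafk rose 1.46-fold and 1.29-fold at 24 h, and Mafk and Mafg rose 1.50-fold and 1.40-fold at 48 h. Hmox1 rose 1.26-fold at 24 h and had a log2FC of 0.07 (-0.06 to 0.19, adjusted p = 0.546) at 48 h. The 6 called higher at 24 h also include Bach1 (log2FC 0.42, adjusted p = 0.0254), which was not called at 48 h (0.17, 0.46). Srxn1 (0.11 at 24 h and 0.13 at 48 h) and Sqstm1 (0.16 and 0.00) were not called at either time. Of 20 genes of the amino acid response, 6 were called higher and 1 lower at 24 h, and 6 and 2 at 48 h, with medians of 0.08 and 0.07, beside the same shares. The 2 of 20 lower at 48 h, near the share over all genes, were Ddit3 (log2FC -0.26, adjusted p = 0.00254) and Nupr1 (-0.30, 0.000937). Atf4 rose 1.17-fold at 24 h (adjusted p = 0.000303) and had a log2FC of 0.07 (-0.02 to 0.17) at 48 h, and Atf5 fell 1.17-fold at 24 h. Asns rose 1.25-fold and 1.19-fold, Mthfd2 rose 1.52-fold and 1.53-fold, Slc7a5 rose 1.54-fold at 48 h and Psat1 rose 1.16-fold at 48 h. In vehicle between 24 h and 48 h, when Chac1 rose 1.45-fold, 12 of the 20 were called higher and 1 lower, with a median of 0.21, beside 8.64% and 8.60% of all genes. Among them, Ddit3 rose 1.52-fold (adjusted p = 1.01e-08) and Atf3 rose 1.53-fold (1.39e-05).

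At 1 µM some pathway genes moved while none of the 5 was called. At 24 h Glrx rose 1.38-fold (adjusted p = 3.39e-07, limma), Nqo1 rose 1.63-fold (4.39e-08) and Gpx2 rose 1.31-fold (0.00123). In the list of cystine and cysteine supply, which also holds genes that divert cysteine, 0 of 14 were called higher and 5 lower. The shares over all genes were 1.91% and 2.40%. Those lower were Bhmt (1.75-fold, adjusted p = 0.00734), Cdo1 (1.28-fold), Mat1a (1.23-fold), Slc6a9 (1.25-fold) and Slc38a2 (1.20-fold). The transsulfuration enzymes Cth (log2FC -0.14, adjusted p = 0.0689) and Cbs (-0.38, 0.177) were not called. The call of Slc38a2 was lost without replicate 2 of 1 µM at 24 h (0.0542), and Slc6a9 was not called on its other probe sets, 1 of which gave the opposite sign. Nnt, Msrb1, Slc25a10 and Atf5 fell 1.22-fold, 1.22-fold, 1.42-fold and 1.17-fold, of which Slc25a10 was not called on its other probe set (0.638). At 48 h Glrx rose 1.29-fold (adjusted p = 9.17e-05, not called on its other probe set, 0.225), Nqo1 rose 1.38-fold (0.000164) and Slc25a11 rose 1.12-fold (0.0417), and the last call was lost without any 1 array of those groups but replicate 2 of vehicle (up to 0.131).

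The genes most alike in pattern were found by Pearson's r of log2 signal over the 30 arrays, among 7109 genes at or above the median mean signal. The arrays share 6 group means, so r is given also with the group means removed, as a description. Slc7a11 was most like Zfand2a (0.97, and 0.78 with group means removed), Zdhhc7 (0.95 and 0.46) and Mafk (0.94 and 0.63). Gclc was most like Slc7a11 (0.90 and 0.21), Txnrd1 (0.90 and 0.41) and Ndrg1 (0.89 and 0.48). Gclm was most like Blvrb (0.92 and 0.69), Ubxn8 (0.91 and 0.55) and Ypel5 (0.90 and 0.39). Gsr was most like Derl2 (0.88 and 0.16), Thnsl1 (0.87 and 0.53) and Slc25a46 (0.87 and 0.28), and Chac1 was most like Selenos (0.95 and 0.48), Eif1ad (0.95 and 0.55) and Anxa3 (0.95 and 0.31). Among the 5 genes, r ran from 0.90 for Gclc and Slc7a11 to -0.13 for Chac1 and Gsr. With group means removed it ran from 0.29 for Gclc and Gsr to -0.45 for Chac1 and Gclc. The likeness between members therefore lay mostly in the group means and little in the wells of a group.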

How the data were processed

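RNA from 30 cultures was measured on a rat expression array. The authors deposited linear signal intensity values computed with MAS5, per the submitters' processing notes. The version and settings of MAS5, not given in the sources used here, could not be checked. Of 31099 probe sets, 57 controls were left out, 20826 had 1 gene symbol, 436 several and 9780 none, and 20758 of the single-symbol probe sets matched the RefSeq gene table of GRCr8. The table held 0 columns of other samples. For each of 14217 genes the probe set of highest mean log2 signal was used (4525 genes had more than 1). Values were log2-transformed from the deposited intensity with no constant and no further normalization. Groups were compared with limma 3.58.1 (R 4.3.3), with 1 mean per group over all 30 arrays, 24 residual degrees of freedom, eBayes with a trend, 9 contrasts and Benjamini-Hochberg adjustment over all genes. The fit was tested on simulated data. Exact permutation tests over arrays were two-sided (Python 3.11.15, scipy 1.17.1). The number of arrays, 5 per group, limits the precision. Promoters and motifs came from RefSeq on GRCr8.

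The 5 genes and all lists were chosen with earlier results of these data known. Named besides the 5 were, per list, up to 4 called genes with the smallest adjusted p at 100 µM at each time, any called at 1 µM, and the 3 genes most alike to each of the 5. Slc3a2, Cth, Cbs, Shmt1, Gss, Chac2, Ggt1, Bach1, Srxn1, Sqstm1, Ddit3, Nupr1 and Atf3 were chosen after their values were seen. So were values given at a time or dose at which a gene was not in that rule. Alternatives were array centring, quantile normalization, a constant of 50, leaving out dim genes, other probe sets, fitting only the groups compared, no trend, and leaving out each array, with a block for rounds of the label numbers added later.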

Additional observations from a re-analysis of the deposited data

Results flagged for a closer look

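On the other Gclc probe set, replicate 5 of vehicle at 48 h read 3448 while its group's remaining arrays read 2319 to 2398. On the same probe set, replicate 2 of 100 µM BNF at 48 h read 5593, above 3979 to 4408 in the rest of its group. Both lay farther from their group than Dixon's test allows at the 95% level, 2 of 36 groups tested, and chance alone flags about 1 in 20 groups. On the probe set used for Gclc, the effect of 100 µM BNF was larger at 48 h than at 24 h by 0.51 on the log2 scale (tested as a difference of effects, adjusted p = 0.0011, limma). On the other probe set this difference was 0.28 (-0.01 to 0.58, adjusted p = 0.475, limma). At each time 5 of 5 arrays at 100 µM were above vehicle, which describes the effect at that time and not the difference.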

How the results depend on the processing

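The labels number the arrays from 1 to 30 with no shared replicate number, but 6 consecutive numbers hold 1 array of each group. In a check added after the data were seen, arrays of the same round did not deviate together: of 75 pairs, 1 had a correlation over 0.1 (median 0.01), and 9 of 30 arrays correlated best with their own round. With the 5 rounds as a replicate block, limma called 5 of the 5 genes at 100 µM at both times and 0 at 1 µM, as without it, and 3050 (24 h) and 2572 (48 h) genes in all at 100 µM, against 3000 and 2475. The block changed no other call described in the report for which alternatives were run. All 5 genes kept their direction and call at 100 µM against vehicle at both times under every alternative run. At 1 µM and 24 h Chac1 passed with quantile normalization (log2FC 0.18, adjusted p = 0.0466, limma) and with dim genes left out (0.17, 0.0448), so 1 of the 5 was called there instead of 0. With arrays left out in turn, that count was 0 to 1, Chac1 ranged from 0.14 to 0.21 and Gclm from 0.13 to 0.24. Gclm passed without replicate 1 of 1 µM (0.0371) and Chac1 without replicate 5 of vehicle (0.0251). The other Gclc probe set gave 0.03 at 24 h and 0.05 at 48 h at 1 µM, and 0.02 for the difference of those effects, signs opposite to the main values. With arrays centred on their median, Chac1 at 1 µM and 48 h was -0.01. Values near 0 changed sign with arrays left out: at 1 µM and 48 h Slc7a11 ran from -0.09 to 0.02, Gclc from -0.08 to 0.02 and Chac1 from -0.02 to 0.07. Gclm over time in vehicle ran from -0.03 to 0.07. For differences of effects, Gclc ran from -0.04 to 0.05 and Gclm from -0.11 to 0.00 at 1 µM, and at 100 µM Gclm ran from -0.01 to 0.08 and Gsr from -0.03 to 0.08. Other probe sets reversed Slc6a9 at 1 µM and 24 h (0.20) and Glrx2 at 100 µM and 48 h (0.16). The cause of these shifts was not tested. The number of all genes called at 1 µM and 24 h was 612, and 406 without replicate 3 of 1 µM. At 1 µM and 48 h it was 115, against 30 with those groups alone and 46 to 153 with arrays left out. For the difference of effects at 1 µM it was 13, against 0 centred, 20 with quantile normalization, 5 with those groups alone, 4 without a trend and 2 to 22 with arrays left out. At 100 µM it was 112, against 174 with dim genes left out. Of called genes, 44.3% were higher at 1 µM and 24 h, and 32.6% when centred; at 1 µM and 48 h 35.7% and 16.2%, and between the doses at 48 h 47.1% and 71.7%.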
